A study of Mus musculus with 98 samples.

Results

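The broken DNA ends described here were made by Cas9 with the Eb guide RNA and stopped within 20 nt of the cut on both strands. They were chosen by position: an end structure, which is a pair of stopping positions for the 5'-ending and the 3'-ending strand, was included when both positions lay between 17 and 57, with the cut taken as position 37. Position 37 was set from these data as the place of the most abundant blunt end, so the share of reads at 37 is a description and no test was run on it. The deposited tables held 1022 Cas9 end structures in either of 2 cell lines, and 311 of them met the rule. In line A, 284 of 800 listed structures were near the cut and held 522669 of 715311 reads. In line B, 263 of 684 structures were near the cut and held 481609 of 625862 reads.

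Both lines are Abelson-transformed mouse pre-B cells, that is, B-cell precursors immortalised with the Abelson kinase, arrested in the G1 phase of the cell cycle and lacking DNA ligase IV (Ligase IV -/-). Line A carries the number CJ 1 and line B the number CJ 7, and the labels put both Cas9 sets in run set 8, with no time after break induction, while the authors' list of read files gives the Cas9 libraries another set number and leaves the zinc finger nuclease libraries of line B in set 8. Each table pools the 3 libraries of 1 line, so the line is the replicate (n = 2) and the spread between libraries of a line cannot be seen. Breaks used for comparison were a zinc finger nuclease break in line B (run set 8), RAG breaks at Jk1 in lines A and B (run set 4, 48 h), and a KpnI control, a restriction enzyme break with a known end (run set 4, 1 library, genotype not given in the labels). The line B libraries at Jk1 also carry the tag shNT in their titles. All groups except KpnI therefore share the loss of ligase IV, and no Cas9 ends from ligase-proficient cells were analysed here.

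Cas9 is a guide-directed nuclease with a pair of catalytic domains: HNH cuts the strand paired with the guide RNA, and RuvC cuts the other strand. It is known for leaving mostly blunt ends, with a minority of staggered ends when RuvC cuts at a neighbouring position. Ligase IV carries out the last step of non-homologous end joining, the main repair route in G1, so in its absence broken ends persist and can be shortened by nucleases or extended by polymerases. In hairpin capture of DNA end structures, a single-stranded DNA ligase joins the strands of an end into a hairpin, which is then bisulfite-treated, amplified and sequenced, so that 1 read shows where both strands stopped.

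Loss is given below as the stopping position minus 37: positive values lie inside the cut (bases removed), 0 is at the cut, and negative values lie outside it. A 3' overhang means that the 5'-ending strand lost more, and a 5' overhang means that the 3'-ending strand lost more. The sign was set from the KpnI table, where the known 4-nt 3' overhang has the value 4. Intervals are exact 95% Clopper-Pearson intervals and cover counting error only, because amplified reads that carry no molecular identifier cannot be counted as separate molecules.

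Most Cas9 ends stayed close to the cut. Near-cut ends made up 73.1% of all reads in line A (interval 73.0 to 73.2) and 76.95% in line B (76.8 to 77.1), a mean of 75.0% ± 2.75 (SD, n = 2). The reads were concentrated in few structures. The 10 most abundant near-cut structures held 63.8% of near-cut reads in line A and 61.1% in line B. At the other extreme, 60 structures in line A and 77 in line B had fewer than 10 reads and together held 0.0434% and 0.0586% of near-cut reads. Both strands stopped within 2 nt of the cut in 62.7% of near-cut reads in line A and 58.1% in line B.

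The most abundant end in both lines was the blunt end at the cut. It held 139302 reads in line A, 19.5% of all reads, and 135850 reads in line B, 21.7%. That was 3.05 times the second most abundant structure in line A and 4.75 times in line B. The second was the 5' overhang of 1 nt in which the 5'-ending strand stopped at the cut and the 3'-ending strand had lost 1 base, with 6.38% of all reads in line A and 4.57% in line B. Whether such an end was cut with a stagger or lost a base after a blunt cut cannot be told apart here. Other blunt ends were also among the 10 most abundant. The blunt end 1 nt outside the cut, which is longer than the cut end by a base pair, held 4.86% and 4.35% of all reads in lines A and B. The blunt end 1 nt inside held 4.95% and 2.64%, and the blunt end 2 nt inside held 3.26% and 2.97%. Blunt ends further out were scarce: at 2 nt outside the cut they held 0.0172% of all reads in line A and 0.0163% in line B.

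Blunt ends continued inward at lower levels. From 3 to 20 nt inside, single blunt positions ranged from 0 to 0.908% of all reads in line A and from 0.000479% to 0.940% in line B. Apart from the positions next to the cut, the blunt ends 7 nt (0.617% and 0.523%), 11 nt (0.363% and 0.274%), 15 nt (0.585% and 0.435%) and 18 nt inside (0.144% and 0.192%) were higher than the positions on either side of them in both lines. Among blunt positions listed in both lines, the one 9 nt inside had the largest fold between lines, with 753 reads in line A and 3 in line B.

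**Figure D1:**
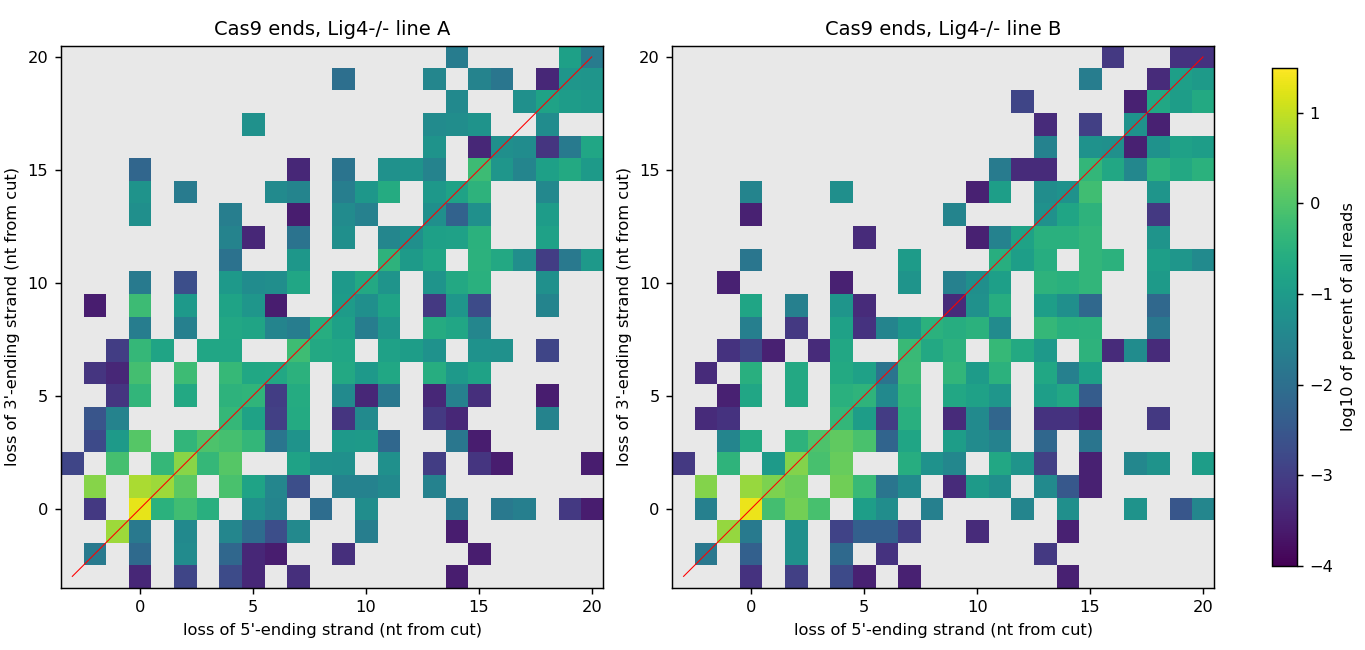
Each square is 1 end structure, placed by the loss of its 5'-ending strand (x axis, nt) and of its 3'-ending strand (y axis, nt), with its share of all reads as colour on a log10 scale, in line A (left) and line B (right). Blunt ends lie on the red diagonal, 3' overhangs below it and 5' overhangs above it, and grey marks structures with no listed reads; the brightest square in both lines is the blunt end at the cut (19.5% and 21.7% of all reads).

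By class, blunt ends made up 50.9% of near-cut reads in line A (50.8 to 51.1) and 46.5% in line B (46.4 to 46.7), a mean of 48.7% ± 3.11 (SD, n = 2). Without the most abundant structure of each line the mean was 29.3%, and with each structure counted once it was 8.44%, so the blunt share rests on few, abundant ends. Overhangs of 1 nt made up 17.8% in line A and 17.6% in line B, a mean of 17.7% ± 0.131. Overhangs of 2 nt or more made up 31.25% in line A and 35.8% in line B, a mean of 33.5% ± 3.24. The total of the 1-nt class was thus close in both lines (a gap of 0.185 percentage points), while its direction was not. The 3' overhang of 1 nt held 6.56% of near-cut reads in line A and 10.2% in line B, and the 5' overhang of 1 nt held 11.3% and 7.44%. Longer 3' overhangs held 15.0% in line A and 27.9% in line B, and longer 5' overhangs 16.2% and 7.92%.

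The lines differed most in the direction of overhangs. Any 3' overhang made up 21.6% of near-cut reads in line A and 38.1% in line B, and any 5' overhang 27.5% and 15.4%. Line A therefore had more 5' than 3' overhangs near the cut, and line B the opposite order. Counting each structure once, the 3' share was 5.40 points higher in line B, against 16.5 points by reads. In 2-sided Fisher's exact tests on the read pools, adjusted by Benjamini-Hochberg over 30 tests (6 pairs of tables by 5 classes), each of the 5 classes differed between the lines with p too small for double precision. These tests compare the pools of reads and not the lines as replicates, and they count amplified reads as independent. With 1 pool per line, the part of the library or run spread within a line in this difference was not tested. How reads were assigned to structures is not given (see the equal-total ends below), and its part in this difference was not tested either.

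The direction held at each length from 1 to 9 nt. All 9 lengths of 3' overhang from 1 to 9 nt had a higher share in line B, by 1.20 to 2.22 times. All 9 lengths of 5' overhang from 1 to 9 nt had a higher share in line A, by 1.51 to 19.1 times. Overhangs of 10 nt or more were rare, at 0.411% (3') and 0.349% (5') of near-cut reads in line A and 1.08% and 0.144% in line B. Among them the direction was mixed. Of 17 such 3' lengths listed in both lines, 13 were higher in line B and 4 in line A. Of 5 such 5' lengths, 3 were higher in line A and 2 in line B. The median 3' overhang was 2 nt long in both lines, and the median 5' overhang was 3 nt in line A and 2 nt in line B. The longest near-cut 3' overhangs were 33 nt in line A and 32 nt in line B, and the longest 5' overhangs 19 nt and 14 nt.

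The 2 directions differed in how length was distributed. Shares of 3' overhangs declined from 1 nt (6.56% and 10.2% of near-cut reads in lines A and B) through 2 nt (4.57% and 9.40%) and 3 nt (3.10% and 6.38%) to 4 nt (2.09% and 3.58%). Shares of 5' overhangs did not decline in that way: 2-nt 5' overhangs were scarce, at 0.833% and 0.364%, while 3-nt 5' overhangs held 8.66% and 5.62%. Most 3-nt 5' overhangs belonged to a single structure, described with the longer 5' overhangs.

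**Figure D2:**
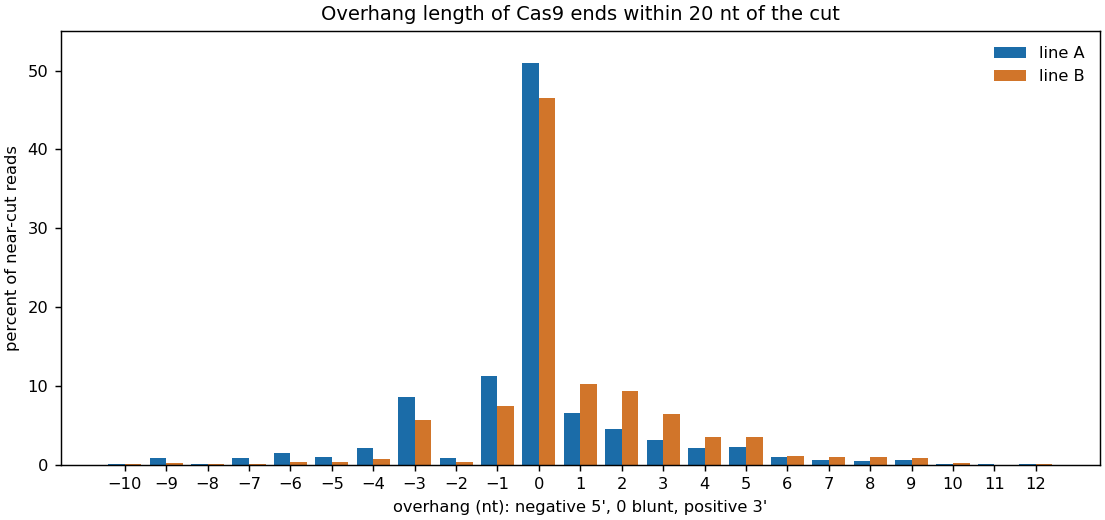
Bars give the share of near-cut reads (y axis, percent) at each overhang length (x axis, nt; negative for 5' overhangs, 0 for blunt, positive for 3' overhangs) in line A (blue) and line B (orange), with no error bars because each line is 1 pooled table. Line B is higher at each 3' length from 1 to 9 nt, line A is higher at each 5' length from 1 to 9 nt, and the 3-nt 5' overhang stands above its neighbours of 2 and 4 nt in both.

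The strands did not stop alike. The 5'-ending strand stopped exactly at the cut in 40.1% of near-cut reads in line A and 35.4% in line B. It lay 1 nt outside in 7.84% and 6.18%, 2 nt outside in 4.45% and 4.07%, and further outside in 0.0807% and 0.110%. The 3'-ending strand stopped at the cut in 28.7% and 33.5%, and 1 nt inside in 23.3% and 19.4%. It lay 1 nt outside in 6.88% and 5.77%, and further outside in 0.209% and 0.357%. Positions outside the cut were therefore nearly confined to 2 nt on the 5'-ending strand and 1 nt on the 3'-ending strand, in both lines. The part of read assignment in these strand positions was not tested.

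Inside the cut, the share of the 5'-ending strand was uneven over distance. In line A it stopped 1 nt inside in 8.06%, 2 nt inside in 9.14%, 3 nt inside in 2.52% and 4 nt inside in 6.54% of near-cut reads. In line B the same positions held 4.52%, 10.3%, 3.29% and 8.53%. The positions 2, 4, 7, 9, 11, 13, 15 and 18 nt inside were higher than both neighbours in each line, whereas the 3'-ending strand declined from 1 to 4 nt inside and then rose again at 5 and 6 nt. The 5'-ending strand was lost by more than 10 nt in 12.2% of near-cut reads in line A and 17.6% in line B.

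**Figure D3:**
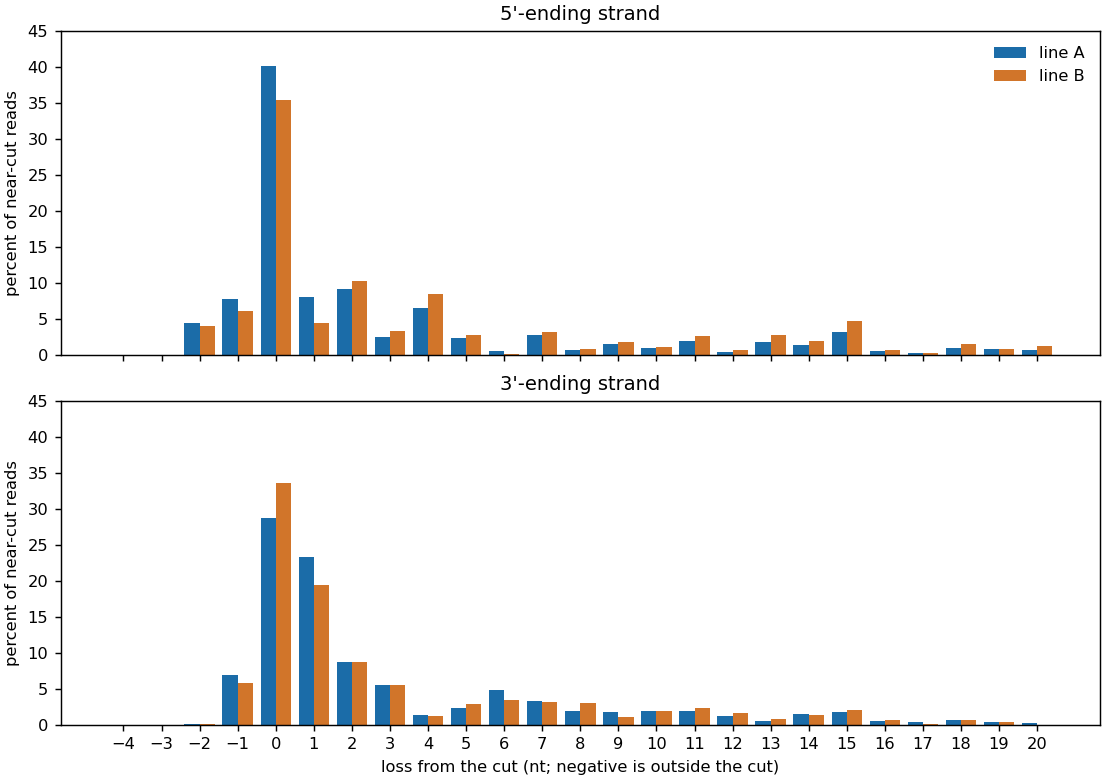
Bars give the share of near-cut reads (y axis, percent) in which the 5'-ending strand (top) or the 3'-ending strand (bottom) stopped at each loss (x axis, nt from the cut; negative is outside) in lines A (blue) and B (orange). The 5'-ending strand peaks at the cut (40.1% and 35.4%), and the 3'-ending strand is spread over the cut (28.7% and 33.5%) and the position 1 nt inside (23.3% and 19.4%).

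The strands were next read as pairs. When the 5'-ending strand was at the cut, the 3'-ending strand was also there in 66.4% of reads in line A and 79.7% in line B, 1 nt inside in 21.8% and 16.8%, and 3 nt inside in 3.77% and 0.855%. No structure with the 3'-ending strand 2 nt inside was listed. When the 3'-ending strand was at the cut, the 5'-ending strand was also there in 92.9% and 84.1%, 1 nt inside in 1.58% and 2.85%, and 2 nt inside in 3.14% and 8.38%. Ends with only the 5'-ending strand at the cut held 13.5% of near-cut reads in line A and 7.19% in line B, against 2.03% and 5.32% for only the 3'-ending strand. Thus in both lines, where only 1 strand stopped at the cut, it was more often the 5'-ending one, by a wider margin in line A.

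Overhangs of 1 nt were dominated on the 5' side by the structure at the cut, with 45664 reads in line A and 28599 in line B. By mean share over the lines, the next 5' overhangs of 1 nt started 2 nt and 4 nt inside on the 5'-ending strand, with 0.407% and 0.362% of all reads in line A and 0.364% and 0.306% in line B. The one that starts 1 nt inside held more in line A, 0.454%, but 0.0989% in line B. On the 3' side no single structure dominated. The leading 3' overhang of 1 nt had the 5'-ending strand 2 nt and the 3'-ending strand 1 nt inside, with 1.33% of all reads in line A and 1.84% in line B. The next had losses of 4 and 3 nt (0.759% and 1.43%) and of 3 and 2 nt (0.461% and 0.804%). The 3' overhang of 1 nt with the 3'-ending strand still at the cut, the mirror image of the leading 5' overhang, held 0.330% and 0.736%.

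Of the longer 5' overhangs, the most abundant had the 5'-ending strand 2 nt outside the cut and the 3'-ending strand 1 nt inside, a 3-nt overhang with 3.23% of all reads in line A and 3.09% in line B. Its mean over the lines was 3.16% ± 0.0982 (SD, n = 2). The 3-nt 5' overhang that starts at the cut held 1.11% in line A and 0.233% in line B, and the 3-nt 5' overhang that starts 1 nt outside held 0.737% and 0.369%. Of 5' overhangs that start at the cut, the 5-nt one held 0.413% and 0.177% of all reads, the 6-nt one 0.716% and 0.288%, and the 7-nt one 0.461% and 0.00144%. The 2-nt 5' overhang with the 3'-ending strand at the cut and the 5'-ending strand 2 nt outside went the other way, with 6 reads in line A and 156 in line B.

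Longer 3' overhangs began a few bases inside the cut. The 3-nt overhang with losses of 4 nt on the 5'-ending and 1 nt on the 3'-ending strand held 0.853% of all reads in line A and 2.04% in line B. The 2-nt overhang with the 3'-ending strand still at the cut held 0.658% and 2.16%, and the 2-nt overhang with losses of 4 and 2 nt held 1.13% and 1.65%. With the 3'-ending strand at the cut, the 3-nt overhang held 0.294% and 0.789%, the 5-nt one 0.0566% and 0.119%, and the 6-nt one 0.0299% and 0.0507%. Each of these 6 shares was higher in line B. In contrast, 3' overhangs made by a 3'-ending strand outside the cut stayed rare: with the 5'-ending strand at the cut, those of 1, 2 and 3 nt held 0.0165%, 0.00797% and 0.000419% of all reads in line A and 0.0176%, 0.00495% and 0.000639% in line B.

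The mix of classes changed with distance from the cut. Ends were grouped by the loss of the strand that had lost more. With few positions outside the cut, this grouping leaves little room for longer overhangs next to the cut and more room further in. Part of the change in mix therefore follows from the grouping itself. Where neither strand had lost more than 2 nt (62.7% of near-cut reads in line A and 58.1% in line B), 71.1% and 70.9% of reads were blunt, 8.71% and 7.79% were 5' overhangs of 2 nt or more, and 1.65% and 5.10% were 3' overhangs of 2 nt or more. Where the deeper strand had lost 3 to 10 nt (24.1% and 23.9%), blunt ends held 17.9% and 14.5%, and the lines differed most: longer 5' overhangs held 36.4% in line A and 11.8% in line B, and longer 3' overhangs 27.6% and 49.8%. Where it had lost 11 to 20 nt (13.2% and 17.9%), longer 3' overhangs held 55.5% in line A and 72.7% in line B, and longer 5' overhangs 15.2% and 3.12%. The blunt shares of the lines were thus close next to the cut, and further in the share was lower in line B.

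**Figure D4:**
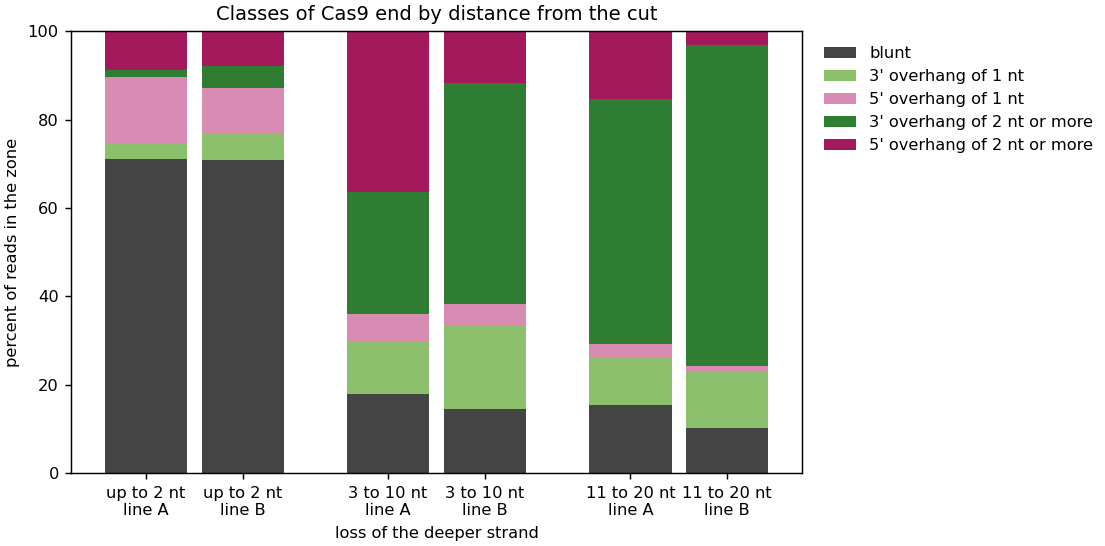
Stacked bars give the share of each class of end (y axis, percent of reads in the zone) for ends whose deeper strand lost up to 2 nt, 3 to 10 nt or 11 to 20 nt, in each line. Blunt ends fall from 71.1% and 70.9% in the first zone to 15.6% and 10.3% in the last, and longer 3' overhangs rise from 1.65% and 5.10% to 55.5% and 72.7%. Part of this follows from the grouping, which leaves little room for longer overhangs in the first zone.

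Beyond the 20-nt window the totals of 3' and of 5' overhangs were closer between the lines. Of the reads outside the window, 3' overhangs of any length made up 58.03% in line A and 57.1% in line B. There 5' overhangs of any length held 29.1% and 24.8%, and blunt ends 12.9% and 18.1%. The classes of 5' overhang were not closer: those of 2 nt or more held 26.0% and 16.7%, and those of 1 nt 3.11% and 8.14%. At the inner edge of the window, the 42 structures whose deeper strand lay 18 to 20 nt inside held 2.08% of all reads in line A and 2.83% in line B. Just past it, the 49 structures at 21 to 23 nt held 2.00% and 2.03%. The leader inside the edge was a 3-nt 3' overhang with losses of 18 and 15 nt (0.133% and 0.337%), and the leader outside it was an 8-nt 3' overhang with losses of 23 and 15 nt (0.119% and 0.321%).

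Single structures were shared more widely than their levels were. Of the 311 near-cut structures, 236 were listed in both lines, which is 83.1% of those of line A and 89.7% of those of line B, and they held 98.9% and 99.4% of near-cut reads. Further out 226 structures were in both lines and held 67.8% and 64.6% of reads there. Of the 236, 56 (23.7%) had a share more than 2-fold higher in line B, against 28.8% of all 462 Cas9 structures listed in both lines. In the other direction 59 (25.0%) were more than 2-fold higher in line A, against 34.4% of all 462. With at least 100 reads in a line, 100 of 182 near-cut structures (54.9%) passed 2-fold in either direction, against 69.5% of all 377. Across the shared near-cut structures the log10 shares of the lines had a Pearson r of 0.677, against -0.247 further out. This is a description across structures, which share libraries and are not independent.

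By class, 17 of 21 shared 3' overhangs of 1 nt and 85 of 128 longer 3' overhangs had the higher share in line B. Over all classes line A was the higher in 112 of the 236 shared near-cut structures and 233 of the 462 shared Cas9 structures. Further out, 9 of 22 and 64 of 128 in the same classes were higher in line B. Of the 5' overhangs near the cut, 10 of 13 of 1 nt and 41 of 52 longer ones had the higher share in line A, where the median longer 5' overhang was 2.18 times its share in line B. Further from the cut, line A was the higher in 5 of 10 and 27 of 45 structures of these 5' classes. The median longer 5' overhang there was 2.19 times its share in line B, as near the cut. Near the cut, blunt structures were split, with 14 of 22 higher in line A. The largest folds came from structures with few reads in the lower line. The 5' overhangs with the 3'-ending strand 7 nt inside and the 5'-ending strand 1, 3 or 0 nt inside had 1154, 1298 and 3296 reads in line A and 2, 3 and 9 in line B, 505-fold, 379-fold and 320-fold higher shares in line A. The 3' overhangs with losses of 20 and 2, 10 and 5, and 13 and 5 nt had 731, 883 and 741 reads in line B and 2, 3 and 3 in line A, 418-fold, 336-fold and 282-fold higher shares in line B. At counts this low the folds are imprecise and no bound is given.

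Ends whose strand losses add up to the same total give hairpin products of the same length, and how the authors assigned reads among them is not given in the sources used here. At the cut, the total of 0 nt held 26.7% of near-cut reads in line A and 28.3% in line B, and 99.7% and 99.5% of these were listed as blunt. In the KpnI table all 305047 reads of the known end were on the 4-nt 3' overhang, and its 4 equal-total structures, the blunt one included, had none listed. The 2-nt 5' overhang with the same total (5'-ending strand 1 nt outside, 3'-ending strand 1 nt inside) had no listed reads in either line. In the zinc finger nuclease table of line B, that structure had 28726 reads and the blunt end at position 37 had none. Of 10 blunt positions from 1 nt outside to 8 nt inside, all 10 were listed in both Cas9 tables and 5 in the zinc finger table. Of the 10 equal-total 5' overhangs of 2 nt, 7 were unlisted in both Cas9 tables, and 4 of these 7 were listed in the zinc finger table. Overhangs of opposite direction can also share a total, as the 5' and 3' overhangs of 1 nt with 1 strand at the cut do. The part of read assignment in the blunt share and in the low share of 2-nt 5' overhangs was not tested. Nor was its part in overhang direction, in strand positions or in the pairing of strands.

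Counting by total loss does not depend on how near-cut reads were shared among equal-total ends, and an odd total cannot be blunt. Which reads fell in the window still depends on the assigned positions. Odd totals made up 35.9% of near-cut reads in line A (35.76 to 36.02) and 35.8% in line B (35.6 to 35.9), a difference of 0.111 points with an adjusted p of 0.245 in Fisher's exact test (8 tests of totals). At least that share of near-cut ends therefore carried an overhang. Within even totals, 79.5% of reads in line A and 72.5% in line B were listed as blunt. Within odd totals, 49.6% and 49.3% were overhangs of 1 nt. A total of 1 nt inside held 10.3% and 7.46% of near-cut reads, a total of 1 nt outside 4.46% and 4.05%, a total of 2 nt inside 7.82% and 6.30%, and a total of 2 nt outside 6.67% and 5.70%. Totals over 10 nt held 20.1% of near-cut reads in line A and 24.7% in line B. The window left out 26.9% of all reads in line A and 23.05% in line B. Among all reads, totals over 10 nt held 41.6% and 42.04%, so the gap was smaller over the whole tables than within the window.

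**Figure D5:**
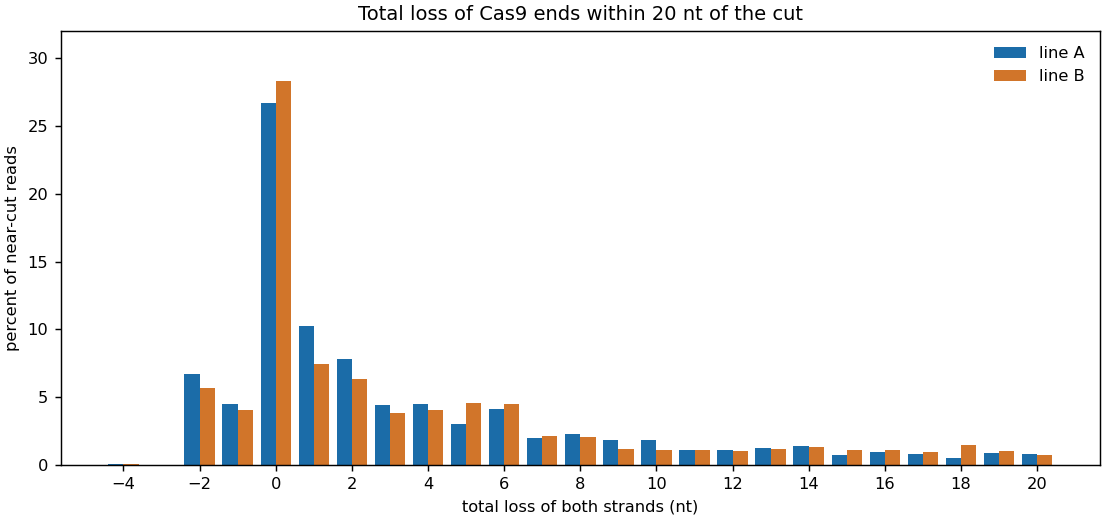
Bars give the share of near-cut reads (y axis, percent) at each total loss of both strands (x axis, nt; negative is outside the cut) in lines A (blue) and B (orange). The total of 0 nt leads with 26.7% and 28.3%, the totals of 1 nt (10.3% and 7.46%) and 2 nt inside (7.82% and 6.30%) and of 2 nt outside (6.67% and 5.70%) are the next highest in both lines, and almost nothing lies below a total of 2 nt outside the cut.

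The KpnI control gave the spread of the assay at a known 4-nt 3' overhang, and not at a blunt end. In its near-break window, 99.4% of 306790 reads fell on the known 4-nt 3' overhang. No other structure with both strands within 1 nt of that end was listed. In the Cas9 tables, the 5 such structures around the blunt cut end held 22.6% of near-cut reads in line A and 16.0% in line B. Totals 1 nt off the leading end held 14.7% and 11.5% of near-cut Cas9 reads against 0.00163% for KpnI, and odd totals held 0.309% for KpnI, with p too small for double precision in each Fisher's exact test. The KpnI control was sequenced in another run set, as 1 library.

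Against the zinc finger nuclease break in the same line, Cas9 ends differed in each class. Zinc finger nucleases cut through the FokI domain and are known to leave 5' overhangs. Near its own reference position, 10.6% of zinc finger reads were blunt, 5.64% were 5' overhangs of 1 nt and 50.9% were longer 5' overhangs, against 46.5%, 7.44% and 7.92% for Cas9 in line B. The 3' overhangs of 1 nt held 12.5% against 10.2% for Cas9, and longer 3' overhangs 20.3% against 27.9%. These class differences passed Fisher's exact test on the pools. The Cas9 reference position was set from these data, as the place of the most abundant blunt end. It is therefore not independent of the Cas9 reads compared here. The zinc finger reference position was chosen with the kind of end that enzyme is known to leave in mind. No sequence of the amplified site was available, so it cannot be taken as independent of the zinc finger reads either. Equal-total ends were listed differently in these tables, as described above. Odd totals depend on that only through which reads fell in the window. They held 37.7% of zinc finger reads and 35.8% of Cas9 reads. The difference was 1.89 points, with an adjusted p of 5.86e-85 in Fisher's exact test on the pools.

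Cas9 ends were also compared with RAG breaks at Jk1, a gene segment of the immunoglobulin kappa locus. There RAG leaves hairpin-sealed coding ends and blunt signal ends. Cas9 ends were more often listed as blunt in both lines. Near the Jk1 origin 25.9% of reads in line A and 23.1% in line B were blunt, so the smallest gap between any Cas9 and any Jk1 line was 20.7 points, larger than the largest gap of 4.39 points between lines at 1 break. Odd totals, which cannot be blunt, held 33.3% and 31.8% of these Jk1 reads in lines A and B. For Cas9 they held more, 35.9% and 35.8% of near-cut reads. The part of read assignment among equal-total ends in the blunt gap was not tested. The Cas9 position was set at the most abundant blunt end, so the blunt gap is not independent of that choice. Without the most abundant structure of each line, the Cas9 blunt mean was 29.3%. The Jk1 blunt mean, with all structures kept, was 24.5%. The 5' overhangs of 1 nt held 1.95% and 1.85% at Jk1, a smallest gap of 5.49 points against 3.81 points between lines. Longer 3' overhangs held 48.4% and 51.9% at Jk1, a smallest gap of 20.5 points against 12.9. The values for 3' overhangs of 1 nt (12.1% and 9.41% at Jk1) and for longer 5' overhangs (11.7% and 13.7%) overlapped between the breaks. The tables do not say which kind of RAG end they hold. Break type, run set and time cannot be told apart in this comparison, and the Jk1 window runs only inward from its origin. All 30 class tests on pools (Fisher's exact test) had an adjusted p below 0.05, with 9.30e-21 the largest, for 3' overhangs of 1 nt in line B. They include tests against KpnI, whose known 4-nt 3' overhang largely fixed their outcome in advance.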

How the data were processed

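Genomic DNA was joined with a single-stranded DNA ligase, treated with bisulfite, amplified and sequenced on an Illumina MiSeq, per the labels' protocols. The authors deposited 1 table per group, with raw read counts, a position and an overhang for every structure. No aligner, read filter, build or rule for placing a read on a structure is stated (not given in the sources used here). The Cas9 tables list structures with 2 reads or more. The meaning of position and overhang was worked out from the KpnI table. Of the deposited tables, 6 were used, with 304805 to 715311 reads each, KpnI included at 307425. Shares are reads over the table total or over near-cut reads, with 95% Clopper-Pearson intervals. Windows of 20 nt were used around position 127 for KpnI and 33 for the zinc finger nuclease, and from 2 inward for Jk1. Classes were compared by 2-sided Fisher's exact tests with Benjamini-Hochberg adjustment (Python 3.11.15, pandas 2.3.3, scipy 1.17.1). Structures named were the 10 with the highest mean share, the 3 leading ones of each of the 5 classes, those with 1 strand at the cut and the other 1 to 6 nt away, the 3 with the largest fold each way with at least 100 reads in the higher line, and the leaders at the window edge. The others named were chosen after their values were seen: blunt ends 2 nt outside and 7, 9, 11, 15 and 18 nt inside, the 5' overhang of 1 nt starting 1 nt inside, and equal-total ends. Members and classes were chosen with earlier results of these data known. The counts by total loss and the alternatives for differences between lines were added after seeing the data. The calculation of the blunt share was checked on simulated, independent reads, where its largest error in 120 draws was 0.178 points. Amplification, read assignment and spread between libraries were not simulated, so the draws show counting error only.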

Additional observations from a re-analysis of the deposited data

How the results depend on the processing

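Leaving out a line (8 values) cannot move a mean of 2 by more than its SD and so shows nothing about stability. Of the other 40 alternative values, 8 stayed close to the main value and 32 moved. Close meant within 1 SD over the lines or, for differences between lines, within their counting intervals. A change of sign could be recorded only for the differences between lines, and none changed sign. With windows of 5 and 10 nt, the near-cut share went from 75.0% to 55.4% and 63.3% (79.9% at 30 nt), blunt ends from 48.7% to 61.2% and 55.4%, longer overhangs from 33.5% to 19.9% and 26.2%, and 1-nt overhangs from 17.7% to 18.9% and 18.4% (17.1% at 30 nt). At 5, 10 and 30 nt, line B minus line A was 11.03, 12.9 and 16.3 points for 3' overhangs (16.5 at 20 nt) and -7.69, -11.03 and -11.7 for 5' overhangs (-12.1 at 20 nt). With each structure counted once, these quantities were 36.98%, 8.44%, 79.1%, 12.4%, 5.40 and -6.78. Without the most abundant structure they were 68.6%, 29.3%, 46.3%, 24.4%, 23.6 and -16.1. With the cut at 36 or 38, the share at the cut was 7.09% or 6.23% on the 5'-ending strand (37.8% at 37) and 6.39% or 21.2% on the 3'-ending strand (31.1% at 37). No paired analysis was possible because each table pools the numbered libraries of a line. Depth limits structures with under 10 reads, and 2 lines, 1 pool each, limit every comparison between lines.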

Other observations

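Some structures were missing alike from all 3 tables whose labels give run set 8. With the 5'-ending strand 1, 3, 8 or 12 nt inside position 37, only 3 to 5 of 14 possible partner positions were listed in either Cas9 table or the zinc finger nuclease table of line B, against 7 to 13 of 14 for the other losses from 0 to 13 nt. Of the 311 near-cut Cas9 structures, 262 were also listed at the same positions in the zinc finger table, which is 84.2% of the Cas9 structures and 72.8% of the 360 zinc finger structures in that window. Over the 18 positions from 3 to 20 nt inside, the share of reads by stopping position of the 5'-ending strand correlated between the Cas9 lines with a Pearson r of 0.990, and with the zinc finger table at 0.893 (line A) and 0.921 (line B). For the 3'-ending strand the values were 0.934, 0.601 and 0.598. These are descriptions across positions, which share libraries and, where the amplified site is the same, base composition. The labels do not say whether both nucleases cut the same site.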
